A study of Mus musculus with 15 samples.

Results

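Notch receptors, their ligands and their target genes were followed in mouse kidneys, sham-operated or with an obstructed ureter. The RNA came from fractions bound and unbound in a pull-down of ribosomes tagged through the collagen 1α1 promoter. The group holds 10 genes, the receptors Notch1, Notch2, Notch3 and Notch4, the ligands Jag1, Jag2 and Dll4, and the targets Hes1, Hey1 and Heyl. They were chosen by name as all probe sets that the platform annotation gives to these symbols, which made 21 of the 45037 probe sets on the array and 10 of its 18193 genes. Heyl, Notch4 and Jag1 have 3 probe sets each, Hes1 and Hey1 have 1, and the remaining 5 genes have 2. All 10 genes passed the filter on low signal that left 16864 genes to be tested.

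Every mouse carried the transgene Tg:Col1a1-eGFPL10a, in which the collagen 1α1 promoter and enhancer drive a GFP fusion of ribosomal protein L10a, on the strain C57/129sv, both sexes, aged P14-P300 (Theiler stage 28). Pulling down the tagged ribosomes (TRAP, translating ribosome affinity purification) gives a bound fraction, meant to hold messages being translated in cells that express collagen 1α1, and an unbound fraction with the rest of the lysate. The labels call the tagged cells kidney pericytes, and also periarterial fibroblasts of the medulla. Sham-operated kidneys were taken on day 0, and kidneys with unilateral ureteral obstruction (UUO), which blocks urine flow and leads to fibrosis, on day 2 or day 5. Polysomal RNA was amplified in 1 round and measured on 15 one-colour arrays, 3 in each of 5 groups. These were sham bound (arrays 1, 2 and 3), sham unbound (4, 5 and 6), day 2 bound (7, 8 and 9), day 5 bound (10, 11 and 12) and day 5 unbound (13, 14 and 15). There was no day 2 unbound group among the 15 arrays. A promoter defines the tagged cells, so any cell type that uses it is in the bound fraction.

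Notch receptors are single-pass membrane proteins that are activated by ligands of the Jagged and Delta-like families on neighbouring cells. Ligand binding lets ADAM proteases and then γ-secretase cut the receptor, and the freed intracellular domain joins RBPJ and Mastermind proteins on DNA. Hes and Hey genes, which encode transcriptional repressors, are the usual direct targets. Notch3 is known as the receptor of pericytes and vascular smooth muscle, Notch4 and Dll4 as endothelial, and HEYL as a repressor found in vascular smooth muscle, where it is a target of Notch3.

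The promoters of 3 members whose signal passed a test below are shown because these members moved in different ways. They are the 250 bases before the RefSeq gene start in GRCm38.p6, 5′ to 3′ on the strand of the gene, with every GC box (GGGCGG, both strands, overlaps counted) in capitals.
Notch3 (chr17:32166891-32167140, minus strand): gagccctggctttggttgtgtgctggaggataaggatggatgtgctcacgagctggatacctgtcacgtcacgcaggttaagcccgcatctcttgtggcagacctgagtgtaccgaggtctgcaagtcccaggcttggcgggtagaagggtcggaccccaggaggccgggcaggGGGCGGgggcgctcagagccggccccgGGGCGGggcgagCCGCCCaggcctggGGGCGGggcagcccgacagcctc
Notch2 (chr3:98013288-98013537, plus strand): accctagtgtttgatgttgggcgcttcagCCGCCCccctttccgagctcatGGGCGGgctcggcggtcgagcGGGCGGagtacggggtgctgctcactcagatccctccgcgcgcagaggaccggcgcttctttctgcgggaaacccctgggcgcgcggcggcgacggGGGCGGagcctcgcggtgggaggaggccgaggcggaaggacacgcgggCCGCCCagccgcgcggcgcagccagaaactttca
Jag1 (chr2:137116521-137116770, minus strand): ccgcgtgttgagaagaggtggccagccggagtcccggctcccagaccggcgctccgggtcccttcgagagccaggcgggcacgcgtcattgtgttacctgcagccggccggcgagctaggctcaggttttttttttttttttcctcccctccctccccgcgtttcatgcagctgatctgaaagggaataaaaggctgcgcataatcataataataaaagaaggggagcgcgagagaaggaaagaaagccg
Notch3 has 4 GC boxes and Notch2 has 5, and the Jag1 sequence has 0. Of 32851 promoter windows of this length, 32.7% hold a GC box. Entries existed for 7 of the 10 members, without Hes1, Hey1 and Heyl. The core letters bound by RBPJ (TGGGAA, both strands) were in 0 of these 7 windows and in 21.6% of all windows. An E-box (CANNTG) was present in Jag1, 82 bases before the start, in Notch4 and in 66.2% of all windows, and a TATA box (TATAAA) in none of the 7 and in 12.4% of all. A match or its absence describes the letters of these windows only.

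Signals are given as log2 of the deposited intensity plus 1 after quantile normalization, with mean ± SD over 3 arrays, so 1 unit is a 2-fold difference. Differences are log2 differences ± SE from limma, with p-values adjusted by the Benjamini-Hochberg method over all 16864 genes, and a gene passed when this was under 0.05. Each gene was read from the probe set with the highest mean, and levels are compared between groups and never between probe sets. Whether a group's 3 arrays stem from separate animals is not in the labels, so p-values reflect only how far these samples spread, and having 3 of them limits the precision. Deposited array medians lay between 16.4 and 198.7. Arrays 6, 9, 12 and 15 had hybridization controls at 12110 to 12900 against 4727 to 5864 on the other 11. Array 11 had a 5′ to 3′ ratio of Gapdh of 0.0269, against 0.178 to 0.583 on the rest. With the 4 bright arrays as a block, each of the 7 differences that passed among the members passed again.

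The tagged cells were checked on their markers. Col1a1, whose promoter drives the tag, stood at 11.61 ± 0.08 in the sham bound fraction and 9.18 ± 0.33 in the unbound, a difference of 2.43 ± 0.19 (limma, adjusted p = 8.63e-05). On day 5 these values were 12.98 ± 0.08 and 12.29 ± 0.10, a difference of 0.69 ± 0.19 (limma, adjusted p = 0.0350). Of 10 markers of pericytes and smooth muscle, 6 were higher in the bound fraction and 0 lower, on day 0 and again on day 5. Of 10 fibroblast markers, 7 were higher on day 0 and 5 on day 5, with 0 lower. Podocyte markers were also enriched, with 4 of the 4 tested higher on day 0 and 2 on day 5. The podocyte list had the highest median difference, at 4.40 on day 0 and 1.89 on day 5. The pericyte and smooth muscle list had medians of 2.01 and 1.55, and the fibroblast list 2.00 and 1.61. In sham, 0 of 6 proximal tubule and 0 of 6 macrophage markers passed as lower in the bound fraction. For the loop and distal tubule 1 of 5 did, and for the collecting duct 1 of 6. Median differences of these lists were −0.44, −0.47, −0.79 and −1.12. On day 5 the counts were 1, 1, 3 and 3 in the same order. In bulk RNA, fewer cells of a type and less RNA per cell cannot be told apart.

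The clearest change among the members was that of Heyl, which rose in the bound fraction after obstruction and was bound-enriched on day 5. Notch3 was bound-enriched in sham kidneys and rose in the unbound fraction by day 5, a call that was lost on leaving out any 1 of the 6 arrays. In a fit over all probe sets that unbound rise did not pass. There the 1 member probe set passing over time in the unbound fraction was 1438886_at of Heyl. Notch2 fell in the bound fraction by day 5, and Jag1 was lower in the bound than in the unbound fraction on that day. Notch1, Notch4, Jag2, Dll4, Hes1 and Hey1 passed none of the 7 comparisons.

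**Figure D1:**
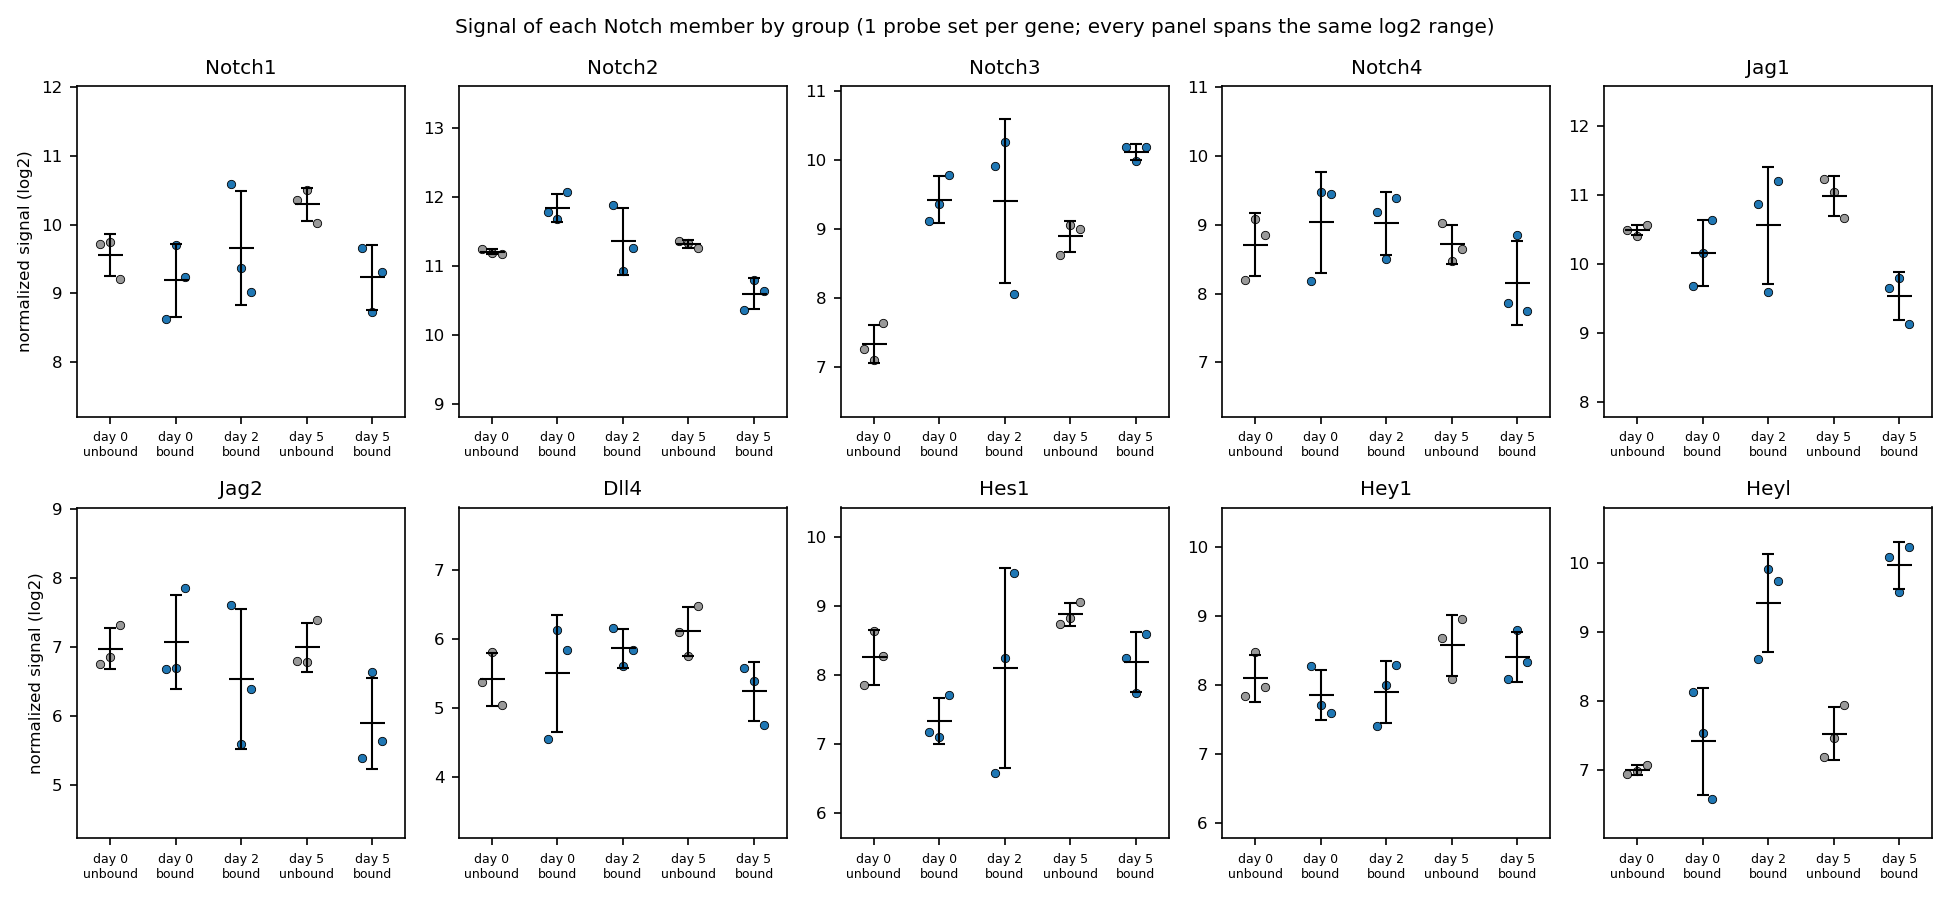
Normalized signal (log2, y axis) of the 10 members in the 5 groups, with 1 point per array, the mean as a horizontal line and 1 SD as error bars, over 3 arrays a group. Every panel spans the same log2 range, bound groups are blue and unbound groups grey, and Heyl is at 9.58 to 10.23 on the day 5 bound arrays against 6.58 to 8.12 on the sham bound arrays.

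Notch3, a receptor of mural cells, had sham bound signals of 9.12, 9.37 and 9.79 (9.42 ± 0.34). Its sham unbound signals were 7.25, 7.09 and 7.64 (7.33 ± 0.28). All 3 bound arrays were above all 3 unbound arrays, and the difference was 2.10 ± 0.45, or 4.28-fold (limma, adjusted p = 0.0150). Of all genes, 8.91% passed in this comparison, and among the members Notch3 was the 1 that did. Without unbound array 4 or 5 the adjusted p was 0.0610 or 0.0597, and with the mean of both probe sets it was 0.0676, at differences between 1.97 and 2.06. On its other probe set, 1421964_at, the difference was 1.91 ± 0.84 (limma over all probe sets, adjusted p = 0.245).

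Notch3 rose in the unbound fraction by day 5. It read 8.63, 9.05 and 8.99 there (8.89 ± 0.23), above all 3 sham unbound arrays, a rise of 1.56 ± 0.45 or 2.96-fold (limma, adjusted p = 0.0448). It was the 1 member that passed in the unbound fraction over time, where 10.4% of all genes did. Leaving out any 1 of the 6 arrays ended the call (adjusted p 0.0778 to 0.142), as did median centring (1.35, adjusted p = 0.0992). Pericyte and smooth muscle markers were higher in the same comparison in 5 of 10 cases and fibroblast markers in 7 of 10, with median differences of 1.52 and 2.20. Their part in the rise of Notch3 was not tested.

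In the bound fraction itself Notch3 showed no change that passed. The day 5 bound arrays read 10.19, 9.99 and 10.19 (10.12 ± 0.12), above all sham bound arrays, with a difference of 0.70 ± 0.45 (limma, adjusted p = 0.285). On day 2 the arrays read 9.91, 10.26 and 8.05 (9.41 ± 1.19), so array 9 stood apart below. The day 2 difference from sham was −0.02 ± 0.45, and without array 9 it was 0.66 ± 0.26 (limma, adjusted p = 0.166). Between the fractions of day 5 Notch3 differed by 1.23 ± 0.45 without overlap (limma, adjusted p = 0.0874), and with median centring by 1.57 (adjusted p = 0.0443). Probe set 1421964_at gave 0.31 ± 0.84 there, with overlap (limma over all probe sets, adjusted p = 0.874). For bound day 5 against sham it gave 0.05 ± 0.84, also with overlap (adjusted p = 0.979). On this probe set the day 5 bound arrays read 9.80, 7.57 and 10.08, so array 11, the array with the low Gapdh ratio, stood apart below. The day 5 unbound arrays read 8.58, 9.03 and 8.90 on it. On the probe set read, the group means of Notch3 ran, from low to high, sham unbound, day 5 unbound, day 2 bound, sham bound and day 5 bound. The day 2 bound arrays overlapped those of every other group except sham unbound.

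Notch2, a widely expressed kidney receptor, fell in the bound fraction. It read 11.79, 11.68 and 12.06 on the sham bound arrays (11.84 ± 0.20), 11.88, 10.92 and 11.25 on day 2 (11.35 ± 0.49), and 10.35, 10.80 and 10.63 on day 5 (10.59 ± 0.23). All day 5 arrays lay below all arrays of both earlier times. The change from sham to day 5 was −1.25 ± 0.24, or 2.38-fold lower (limma, adjusted p = 0.00356), in a comparison where 23.7% of all genes passed. From sham to day 2 it was −0.49 ± 0.24 (limma, adjusted p = 0.235), and without day 2 array 7 it was −0.75 ± 0.20 and passed (limma, adjusted p = 0.0265). The second probe set, 1451889_at, exceeded the negative controls on 6 of 15 arrays, and with the mean of both the day 5 change was −0.62 (adjusted p = 0.333). Markers of other kidney cells were lower in the same comparison, in 5 of 6 cases for the proximal tubule, 5 of 5 for the loop and distal tubule, 5 of 6 for the collecting duct, 4 of 4 for podocytes and 7 of 15 for endothelium. Their part in the fall of Notch2 was not tested.

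The unbound fraction showed no such fall of Notch2. It read 11.24, 11.19 and 11.18 in sham (11.20 ± 0.03) and 11.36, 11.33 and 11.26 on day 5 (11.32 ± 0.05), a difference of 0.11 ± 0.24 (limma, adjusted p = 0.826), or −0.23 with median centring. Bound was above unbound on every array in sham, by 0.64 ± 0.24 (limma, adjusted p = 0.120), and below on every array on day 5, by −0.72 ± 0.24 (limma, adjusted p = 0.0647). With median centring the latter was −0.14. The change of the difference between the fractions was −1.36 ± 0.34 and did not pass (limma, adjusted p = 0.154), in a comparison where 0.0178% of all genes and 0 of the members did.

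Notch1, a receptor of many cell types, passed no comparison. It read 8.63, 9.70 and 9.24 in sham bound (9.19 ± 0.53) and 9.72, 9.74 and 9.20 in sham unbound (9.55 ± 0.30). On day 2 the bound arrays read 10.59, 9.37 and 9.02 (9.66 ± 0.82), and on day 5 they read 9.66, 8.73 and 9.31 (9.23 ± 0.47). The day 5 unbound arrays read 10.35, 10.50 and 10.02 (10.29 ± 0.25) and lay above all the others of day 5 and sham. The day 5 difference between the fractions was −1.06 ± 0.41 (limma, adjusted p = 0.103), and −0.38 ± 0.51 on probe set 1418633_at. On that probe set the bound signal differed from sham by 1.40 ± 0.51 on day 2 and by 1.21 ± 0.51 on day 5, both without overlap and neither passing (limma over all probe sets, adjusted p = 0.167 and 0.149). The probe set read gave 0.47 ± 0.41 and 0.04 ± 0.41 in these comparisons. On 1418633_at the day 5 bound arrays read 6.68, 8.66 and 6.73, with array 11, the array with the low Gapdh ratio, apart above. The sham bound arrays read 6.08, 6.57 and 5.79 on it.

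Notch4, an endothelial receptor, read 8.18, 9.48 and 9.44 in sham bound (9.03 ± 0.74) and 8.20, 9.07 and 8.86 in sham unbound (8.71 ± 0.46). The bound arrays read 9.18, 8.51 and 9.38 on day 2 (9.02 ± 0.46) and 7.86, 8.85 and 7.75 on day 5 (8.15 ± 0.60). The day 5 unbound arrays read 9.03, 8.47 and 8.65 (8.72 ± 0.28), so all 5 groups overlapped with a neighbour. In the bound fraction Notch4 differed from sham by −0.88 ± 0.42 on day 5 (limma, adjusted p = 0.147), and probe set 1456263_at gave −0.81 ± 0.52. A further probe set, 1436901_at, exceeded the negative controls on 0 of 15 arrays.

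Endothelial markers moved beside these values. Of 15 such markers, 9 were lower and 0 higher in the bound than in the unbound fraction on day 5, with a median difference of −1.78, against 1 higher and 1 lower on day 0. Pecam1, an endothelial adhesion molecule, differed by −2.25 ± 0.61 on day 5 (limma, adjusted p = 0.0300) and Cdh5, the endothelial cadherin, by −2.01 ± 0.35 (limma, adjusted p = 0.00534). Kdr, the third on the list, read 5.30 ± 2.11 in the day 5 bound and 7.18 ± 0.47 in the day 5 unbound fraction. A positive difference was seen in 1 of the 15, Emcn, at 11.42 ± 0.94 bound and 10.77 ± 0.28 unbound. The mean linear signal of the 15 markers was 421 to 472 on day 5 bound arrays, 778 to 924 on day 5 unbound arrays, and 854 to 1128 on sham bound arrays. At least 14 of the 15 exceeded the negative controls on all arrays of each group. Other marker lists were also lower in the bound fraction of day 5. Their median differences were −1.98 for the collecting duct, −1.72 for macrophages, −1.64 for the proximal tubule and −1.09 for the loop and distal tubule. Medians of the pericyte and smooth muscle, fibroblast and podocyte lists were positive. The part of endothelium or of these other cells in the values of Notch1, Notch4 and the ligands was not tested.

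Jag1, a ligand of the Jagged family, was lower in the bound than in the unbound fraction of day 5, and of the 8 members with a negative difference there it was the 1 that passed. It read 9.65, 9.80 and 9.14 there (9.53 ± 0.35) and 11.23, 11.05 and 10.66 in the unbound fraction (10.98 ± 0.29), with no overlap. The difference was −1.45 ± 0.38, or 2.73-fold lower (limma, adjusted p = 0.0279), where 14.1% of all genes passed in either direction and 2 of the members, Jag1 and Heyl, did. The call was lost on leaving out any of arrays 10, 12, 13, 14 or 15 (adjusted p 0.0535 to 0.0928) and with median centring (adjusted p = 0.0835). Probe set 1421106_at differed by −0.05 ± 0.47, and 1421105_at exceeded the negative controls on 1 of the 3 day 5 bound arrays, so its difference is not given. The mean of all 3 probe sets gave −0.90 (adjusted p = 0.0832).

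In sham kidneys Jag1 read 9.68, 10.15 and 10.64 in the bound fraction (10.16 ± 0.48) and 10.50, 10.41 and 10.56 in the unbound (10.49 ± 0.07). On day 2 the bound arrays read 10.88, 9.60 and 11.20 (10.56 ± 0.85), with array 8 apart below. The day 5 bound signal differed from sham by −0.63 ± 0.38 (limma, adjusted p = 0.257) and from day 2 by −1.03 ± 0.38 (limma, adjusted p = 0.221). Without array 8 the latter was −1.50 (adjusted p = 0.0172).

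Jag2, the other Jagged ligand, read 6.67, 6.69 and 7.85 in sham bound (7.07 ± 0.68) and 6.75, 6.86 and 7.31 in sham unbound (6.97 ± 0.30). The bound arrays read 7.60, 5.59 and 6.39 on day 2 (6.53 ± 1.01) and 5.39, 6.64 and 5.63 on day 5 (5.89 ± 0.66). The day 5 unbound arrays read 6.80, 6.78 and 7.39 (6.99 ± 0.35). The day 5 bound arrays lay below all sham bound and all day 5 unbound arrays, by −1.18 ± 0.50 and −1.10 ± 0.50, and neither difference passed (limma, adjusted p = 0.108 and 0.161). The second probe set, 1426431_at, exceeded the negative controls on 12 of 15 arrays. It gave −0.002 ± 0.78 and −0.54 ± 0.78 in these comparisons, both with overlap (limma over all probe sets, adjusted p = 0.999 and 0.742).

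Dll4, a Delta-like ligand of endothelial tip and arterial cells, had signals near the negative controls, whose highest value lay between 3.41 and 5.09 on the arrays. The sham bound arrays read 4.54, 6.13 and 5.83 (5.50 ± 0.84) and the unbound 5.38, 5.81 and 5.05 (5.41 ± 0.38). The bound arrays read 6.16, 5.60 and 5.83 on day 2 (5.87 ± 0.28) and 5.57, 5.39 and 4.75 on day 5 (5.24 ± 0.43), against 6.10, 5.76 and 6.47 in the day 5 unbound fraction (6.11 ± 0.36). Bound was below unbound on every array of day 5, by −0.87 ± 0.40 (limma, adjusted p = 0.160). The other probe set, 1421826_at, exceeded the negative controls on 10 of 15 arrays. It did so on 1 of the 3 day 5 bound arrays, so its difference is not given.

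Heyl, the repressor tied to Notch3 in mural cells, rose early and stayed high. Its sham bound arrays read 8.12, 7.53 and 6.58 (7.41 ± 0.78), the day 2 bound arrays 8.60, 9.91 and 9.73 (9.41 ± 0.71), and the day 5 bound arrays 10.08, 9.58 and 10.23 (9.96 ± 0.34). All bound arrays after obstruction lay above all sham bound arrays, and those of day 2 and day 5 overlapped. The rise by day 2 was 2.01 ± 0.41, or 4.01-fold (limma, adjusted p = 0.0105), and that by day 5 was 2.56 ± 0.41, or 5.88-fold (limma, adjusted p = 0.00129). Both comparisons share the sham bound arrays. From day 2 to day 5 the difference was 0.55 ± 0.41 (limma, adjusted p = 0.541).

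Heyl was the 1 member that passed on day 2, where 9.25% of all genes did. From day 2 to day 5, 0.587% of all genes and 0 of the members passed. The rise by day 5 passed under all 18 other settings tried. The rise by day 2 missed the threshold without the bright arrays (1.84, adjusted p = 0.103) and in a fit of these groups alone (adjusted p = 0.163).

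In the unbound fraction Heyl read 6.93, 6.98 and 7.07 in sham (6.99 ± 0.07) and 7.18, 7.45 and 7.93 on day 5 (7.52 ± 0.38), a difference of 0.53 ± 0.41 (limma, adjusted p = 0.487). Bound and unbound overlapped in sham and differed by 0.41 ± 0.41 (limma, adjusted p = 0.577). On day 5 they did not overlap, and bound was higher by 2.44 ± 0.41, or 5.43-fold (limma, adjusted p = 0.00481). Without the bright arrays this was 2.51 (adjusted p = 0.0834), in a fit where 0 genes of any kind passed. The change of the difference between the fractions was 2.03 ± 0.58 and did not pass (limma, adjusted p = 0.188). Pericyte and smooth muscle markers were higher by day 5 in the bound fraction in 5 of 10 cases, with a median of 0.81 and 8 of 10 positive. On this list Myh11 went from 11.76 ± 1.09 to 10.09 ± 0.52 and Lmod1 from 10.00 ± 1.10 to 8.48 ± 0.87. Mean linear signal of the list was 2120 to 3010 on sham bound arrays and 3766 to 3896 on day 5 bound arrays. Fibroblast markers were higher in 6 of 10 cases, with a median of 1.07 and 10 of 10 positive. The part of either list in the rise of Heyl was not tested.

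The other probe sets of Heyl bear on these values. Probe set 1438886_at read 7.00, 6.72 and 7.01 in sham bound (6.91 ± 0.16), 8.75, 10.21 and 9.41 on day 2 (9.46 ± 0.73), and 10.13, 9.60 and 10.45 on day 5 (10.06 ± 0.43). In the unbound fraction it read 5.61, 5.47 and 6.00 in sham (5.69 ± 0.28) and 7.44, 7.47 and 7.78 on day 5 (7.57 ± 0.19). Its rise from sham in the bound fraction was 2.55 ± 0.36 by day 2 and 3.15 ± 0.36 by day 5 (limma over all probe sets, adjusted p = 0.00197 and 0.000293).

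On this probe set the unbound signal of Heyl also rose, by 1.87 ± 0.36 (limma over all probe sets, adjusted p = 0.0127), whereas probe set 1419302_at gave 0.53 ± 0.43. The difference between the fractions was 1.22 ± 0.36 in sham (adjusted p = 0.0901) and 2.49 ± 0.36 on day 5 (adjusted p = 0.00795). The third, 1419303_at, exceeded the negative controls on 11 of 15 arrays and passed no comparison.

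Over all probe sets without a filter, 1 of the 21 passed for bound against unbound in sham, 2 on day 5, 2 for day 2 and 3 for day 5 against sham in the bound fraction, and 1 over time in the unbound fraction. The shares of all 45037 probe sets in these 5 comparisons were 2.95%, 5.18%, 3.68%, 11.2% and 3.67%. For day 5 against day 2, and for the change of the difference between the fractions, 0 of the 21 passed, beside 0.155% and 0.00222% of all. Those that passed belonged to Heyl, Notch3 and Notch2, and Jag1 did not pass in this wider fit (probe set 1434070_at, adjusted p = 0.0564). The 1 that passed over time in the unbound fraction was 1438886_at of Heyl. The unbound rise of Notch3 did not pass here (1421965_s_at, limma over all probe sets, adjusted p = 0.0934).

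**Figure D2:**
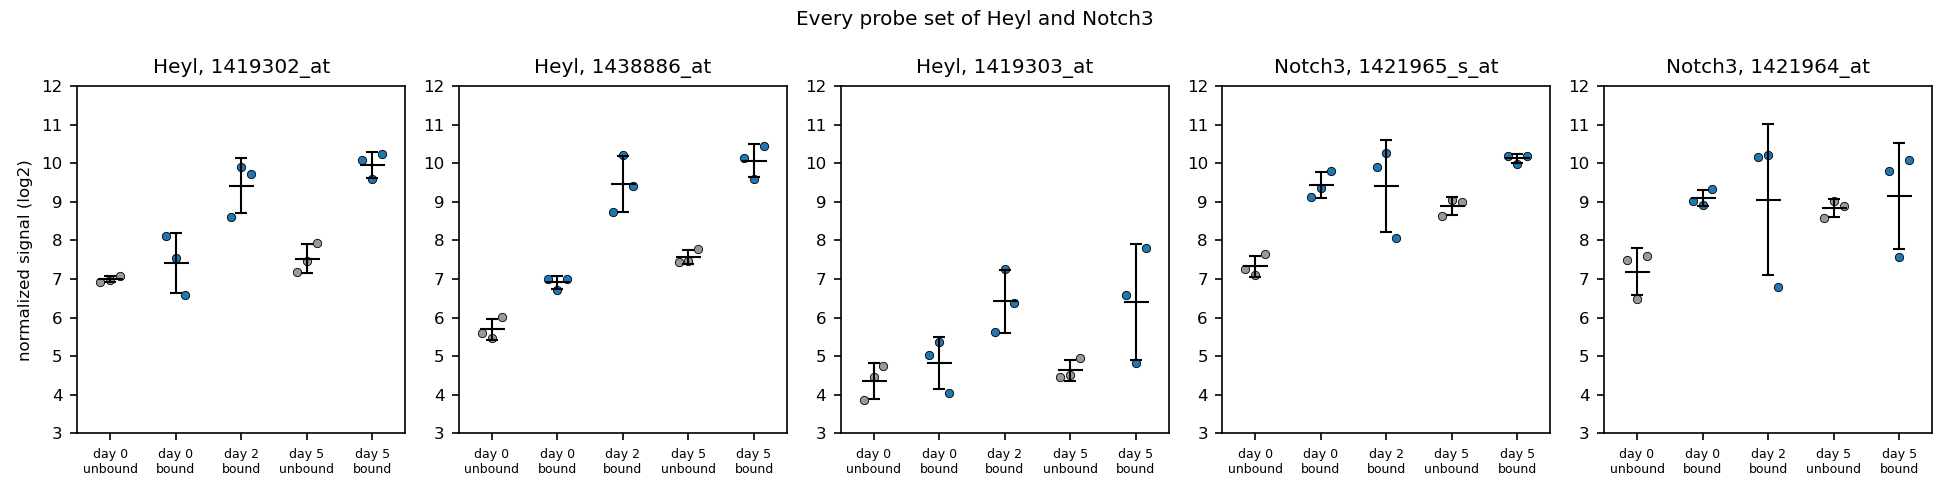
Normalized signal (log2, y axis) of the 3 probe sets of Heyl and the 2 of Notch3 in the 5 groups, with 1 point per array, the mean as a line and 1 SD as error bars over 3 arrays. Probe sets 1419302_at and 1438886_at of Heyl both stand at 9.58 or more on the day 5 bound arrays, and on array 9 of day 2 both probe sets of Notch3 lie below the other arrays of that group.

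Hes1, a repressor induced by Notch in many tissues, passed no comparison. The sham bound arrays read 7.17, 7.10 and 7.71 (7.33 ± 0.33), below all sham unbound arrays at 7.85, 8.64 and 8.27 (8.25 ± 0.40), with a difference of −0.92 ± 0.55 (limma, adjusted p = 0.321). The bound arrays read 6.58, 8.24 and 9.47 on day 2 (8.10 ± 1.45), the widest spread of any member's group on the probe sets read, and 8.24, 7.73 and 8.59 on day 5 (8.19 ± 0.43). The day 5 unbound arrays read 8.74, 8.83 and 9.06 (8.88 ± 0.16). In the bound fraction day 5 differed from sham by 0.86 ± 0.55 without overlap (limma, adjusted p = 0.280). Day 2 differed by 0.77 ± 0.55 (limma, adjusted p = 0.429), and without array 7 by 1.54 ± 0.39, which passed (limma, adjusted p = 0.0219).

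Hey1, a related repressor prominent in endothelium, read 8.27, 7.71 and 7.59 in sham bound (7.86 ± 0.36) and 7.83, 8.47 and 7.97 in sham unbound (8.09 ± 0.34). The bound arrays read 7.40, 8.00 and 8.29 on day 2 (7.90 ± 0.45) and 8.09, 8.80 and 8.33 on day 5 (8.41 ± 0.36), and the day 5 unbound arrays 8.69, 8.08 and 8.95 (8.57 ± 0.44). The groups compared overlapped in all 6 contrasts between pairs of groups. Bound day 5 differed from sham by 0.55 ± 0.33 (limma, adjusted p = 0.242), with a 95% interval of −0.16 to 1.26.

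As a set, the 10 genes had no common direction in the bound fraction over time. From sham to day 5 their differences were positive for 5 and negative for 5, with a median of −0.11 beside 0.12 over all genes, and 2 passed. Between the fractions of day 5, 8 of the 10 were negative, with a median of −0.71 beside 0.03 over all genes. With median centring 7 were negative, since Hey1 turned to 0.05, with a median of −0.41 beside 0.41. In the unbound fraction over time all 10 were positive, with a median of 0.51 beside 0.01, and 7 were positive with median centring.

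**Figure D3:**
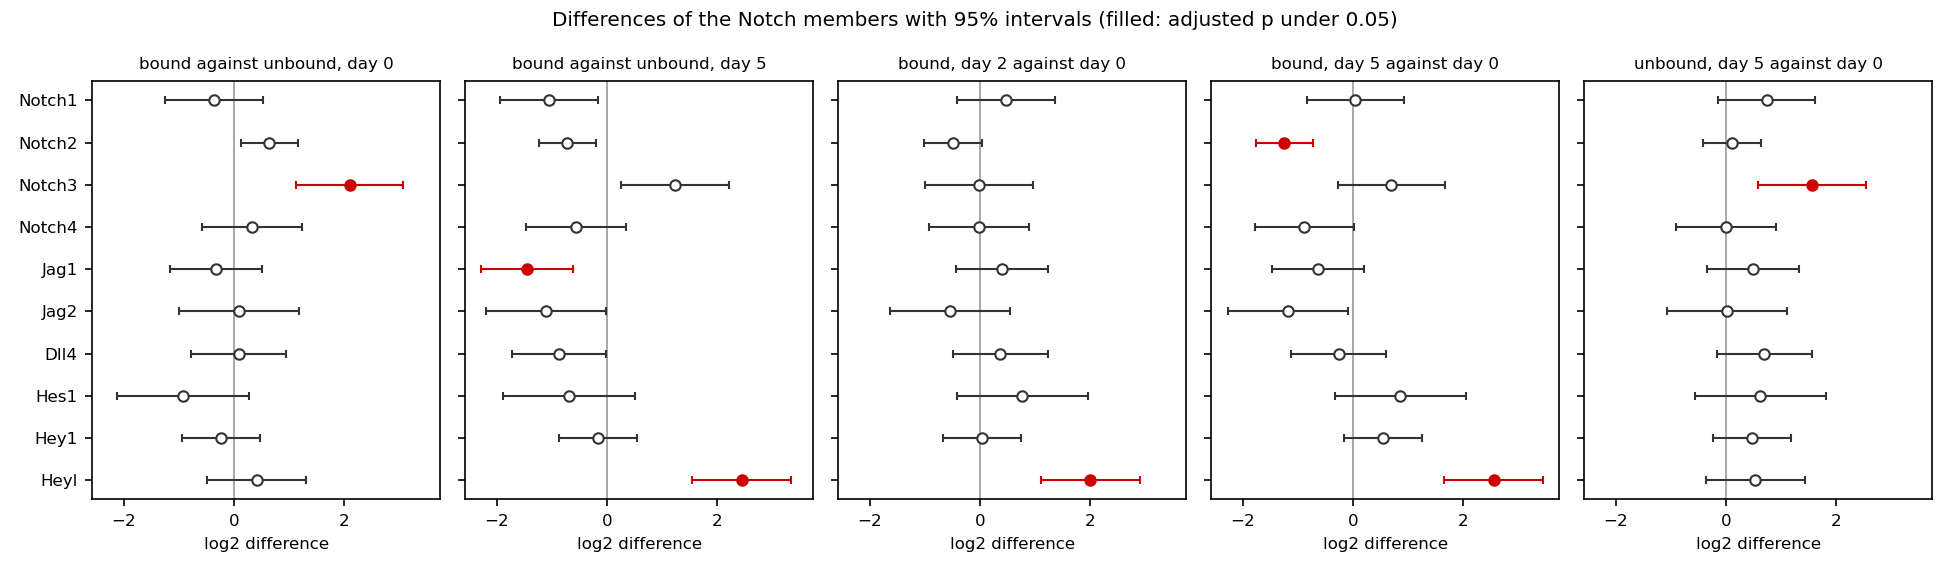
Log2 differences (x axis, first group minus second) of the 10 members in 5 comparisons, with 95% intervals from limma as bars and points filled in red where the adjusted p is under 0.05. Heyl lies to the right in 3 panels with values of 2.01 to 2.56, and 7 of the 50 points are filled.

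The wider pathway was read from a list of 63 further genes, of which 57 were tested. In sham kidneys 5 were higher in the bound fraction and 1 lower, 10.5% of those tested beside the 8.91% of all genes. Snai1, a zinc-finger repressor of mesenchymal cells, was higher by 2.84 ± 0.48 (limma, adjusted p = 0.00476). Enzymes that add sugars to the receptor's extracellular repeats differed among themselves, with Lfng higher by 1.54 ± 0.41 (limma, adjusted p = 0.0370) and Mfng lower by −1.80 ± 0.45 (limma, adjusted p = 0.0282). Dtx4, a Deltex ubiquitin ligase, was higher by 1.37 ± 0.34 (limma, adjusted p = 0.0277). On day 5, 3 were higher and 4 lower in the bound fraction, 12.3% of those tested beside 14.1% of all genes. Snai1 was higher by 2.68 ± 0.48 (limma, adjusted p = 0.00603), its relative Snai2 by 1.19 ± 0.33 (adjusted p = 0.0347), and Numbl, a relative of the Notch antagonist Numb, by 1.85 ± 0.54 (adjusted p = 0.0398). Ccnd1, which encodes cyclin D1, was lower by −1.75 ± 0.41 (adjusted p = 0.0179).

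Over time in the bound fraction, 2 pathway genes rose and 2 fell by day 2, or 7.02% of those tested beside 9.25% of all genes. Myc, a growth regulator and Notch target in some cells, rose by 2.50 ± 0.35 (limma, adjusted p = 0.000912) and Hdac1, a histone deacetylase of corepressor complexes, by 0.75 ± 0.20 (adjusted p = 0.0316). Lfng fell by 2.11 on the log2 scale (adjusted p = 0.00703) and Snw1, a nuclear cofactor and splicing factor, fell by 1.39 (adjusted p = 0.0156). By day 5, 7 rose and 7 fell, 24.6% of those tested beside 23.7% of all genes. Sox9, also on the list of tubular injury markers used here, rose by 2.45 ± 0.59 (limma, adjusted p = 0.0121) and Myc by 1.75 ± 0.35 (adjusted p = 0.00460). Spen, a corepressor that binds RBPJ, fell by 2.02 (adjusted p = 0.0118) and Ccnd1 by 1.46 (adjusted p = 0.0247). Sox9 rose in the unbound fraction as well, by 3.76 ± 0.59 (limma, adjusted p = 0.00201).

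The unbound fraction over time had 5 pathway genes higher and 2 lower, 12.3% beside 10.4% of all genes. For day 5 against day 2, and for the change between the fractions, limma called 0 of the 57. Genes of receptor processing, such as the proteases and γ-secretase subunits, had 8 of 10 tested. In the unbound fraction over time 1 of the 8 was higher, 12.5% beside the 10.4% of all genes, and in the bound fraction over time and between the fractions limma called 0 of them.

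**Figure D4:**
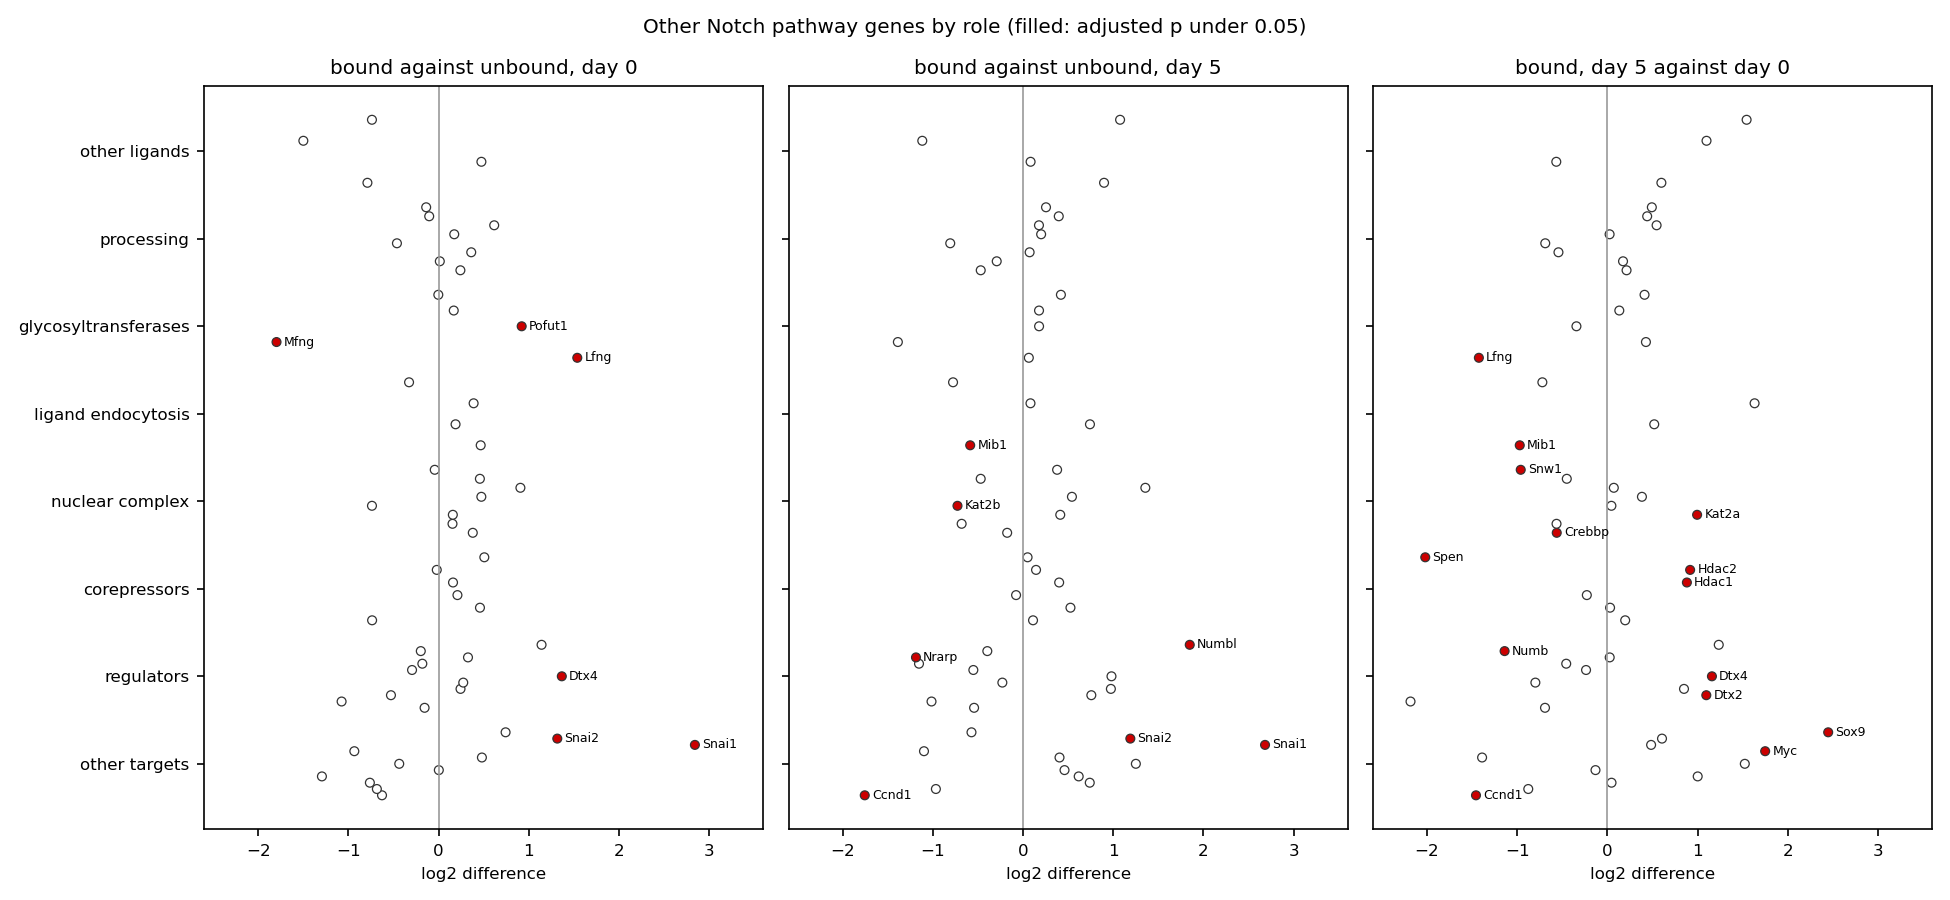
Log2 differences (x axis) of the 57 other pathway genes tested, by role (y axis, 8 roles, with points spread vertically inside a role), in 3 comparisons, filled in red and named where the adjusted p is under 0.05. Filled points number 6, 7 and 14 in the panels from left to right and lie on both sides of 0 in each.

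The genes most like a member over the 15 arrays were taken as a description, since these arrays share their groups. Heyl ran closest to Rad18 (Pearson's r = 0.972, Spearman's rho = 0.946), Dnmt3l (r = 0.959) and Nxn (r = 0.956). Notch3 ran closest to Mrc2, an endocytic collagen receptor (r = 0.951, rho = 0.961), Ptprs and H6pd (r = 0.945 each). Notch2 ran closest to Akap11 (r = 0.951), Rreb1 (r = 0.942) and Lmtk2 (r = 0.928), and Jag1 to Sowahb (r = 0.931), Vwa2 (r = 0.925) and Plxnb1 (r = 0.921). The first gene for Notch4 was Jmjd1c (r = 0.924), and the endothelial receptor Tie1 was the third (r = 0.884). For Dll4 the highest r was 0.791, with Tmem88. Among the members themselves r ran from −0.75 for Jag2 with Heyl to 0.78 for Notch2 with Jag2, and was 0.60 for Notch3 with Heyl.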

How the data were processed

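The authors' deposited table holds 1 linear intensity per probe set and array. Per the labels, polysomal RNA was amplified in 1 round with a NuGEN kit and labelled with biotin, and how probes were summarised, background-corrected and scaled is not given in the sources used. Control probe sets and 932 probe sets with several genes were left out of the genes, 9160 had no gene, and 34945 matched 1 gene through the platform annotation. Intensities were taken as log2 of the value plus 1, quantile normalized, and kept above the array's 25th percentile on at least 3 arrays. Genes with several probe sets were represented by the brightest on average. The highest of 27 negative-control probe sets on an array served as its floor.

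Differences were fitted by limma (version 3.58.1, R 4.3.3) in a model with a mean for each group, from which 7 contrasts were drawn without a block, since the title numbers of the arrays are not shared between groups. A second fit held all 45037 probe sets without a filter. The steps were tested on simulated data. Members and gene lists were chosen with earlier results of these data known. All members are named, with the largest 4 passing pathway genes in each of 4 comparisons, the first genes of a marker list and the 3 most correlated genes. The other settings were no filter, the 50th percentile, median centring, the mean of probe sets, only the groups compared, array weights, a trended robust prior, a stricter adjusted p under 0.01, 16 as the pseudocount, a 2-fold minimum, each array left out and the bright arrays left out. The bright arrays as a block were added after seeing the data. Promoter sequences are from RefSeq (GRCm38.p6). Figures were drawn with matplotlib 3.10.9.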

Additional observations from a re-analysis of the deposited data

Results flagged for a closer look

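Notch2 stood out because its arrays separated by day in opposite directions in the fractions, although only the bound difference passed. The unbound difference was 0.11 ± 0.24 (limma, adjusted p = 0.826). All 3 day 5 bound arrays lay below all sham bound arrays, and all 3 day 5 unbound arrays lay above all sham unbound arrays. The change of the difference between the fractions was −1.36 ± 0.34 on the log2 scale, with an unadjusted limma p of 0.00165 and an adjusted p of 0.154. It was −0.68 with median centring (adjusted p = 0.319), where the unbound difference turned to −0.23.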

How the results depend on the processing

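Quantile normalization and median centring differ in where they set the typical gene. With median centring the median difference of all genes was 0.41 between the fractions of day 5 and 0.34 for bound day 5 against sham, against 0.03 and 0.12 as reported. The number of members passing, in the order of bound against unbound in sham (1 as reported) and on day 5 (2), the change between them (0), bound day 2 and day 5 against sham (1 and 2), bound day 5 against day 2 (0) and unbound day 5 against sham (1), moved as follows. With array weights it was 3, 7, 2 for the change, 5 for bound day 5 and 2 for unbound, where 25.5%, 35.8%, 11.5%, 36.5% and 31.3% of all genes passed. With the mean of probe sets it was 0 in sham, 1 on day 5, 1 for bound day 5 and 0 for unbound. At an adjusted p under 0.01 it was 0 in sham, 1 on day 5, 0 for bound day 2 and 0 for unbound. With only the groups compared it was 4 on day 5, 1 for the change (Notch2) and 0 for bound day 2. Without the bright arrays it was 0 on day 5 and 0 for bound day 2, and with median centring 0 for unbound. Leaving out 1 array gave 0 to 1 in sham, 1 to 2 on day 5, 1 to 3 for bound day 2, 0 to 2 for day 5 against day 2, and 0 for unbound. The 3 (Heyl, Notch2 and Hes1) came without array 7 and the 2 (Jag1 and Notch2) for day 5 against day 2 without array 8. None of the 7 differences that passed changed sign under any of the 18 settings each was tried with. The causes were not tested. No paired analysis was possible because the arrays of different groups share no replicate number. Signal near the negative controls limits Dll4 and the dimmer probe sets.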
